A study of Homo sapiens with 3 samples.

Results

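Transcripts of FADD and its partners in death receptor signalling were measured in HT29 cells, a human line derived from a colorectal adenocarcinoma. The genes considered were FADD, FAS, TNFRSF10A, TNFRSF10B, TNFRSF1A, TNFSF10, CASP8, CFLAR, RIPK1 and TRADD. A member was any Affymetrix probe set, that is a group of short probes summarised to 1 value, which the platform annotation pairs with exactly 1 of these genes. This gave 37 probe sets out of the 41091 paired with a single gene, and they covered 9 of the 10 genes. RIPK1 had no probe set under this rule and was not analysed here. The series holds 3 arrays, 1 of cells transduced with an empty lentiviral vector and 2, labelled replicates 1 and 2, of cells transduced with a lentiviral miR-146a construct. Every array is thus of lentivirally transduced HT29 cells grown in DMEM with 10% FBS. The labels do not say whether the transduced cells were a pool or a clone, or which promoter drives the construct. Since the labels do not tie the replicates to different cultures, a p-value here speaks only of the scatter of these arrays, possibly a technical one, and the vector, with 1 array, has no error of its own.

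Death receptors are members of the TNF receptor superfamily that carry a death domain inside the cell. On binding of ligands such as Fas ligand or TRAIL, FAS and the TRAIL receptors recruit the adaptor FADD, which has a death domain and a death effector domain, and FADD in turn brings in procaspase-8, which is activated by proximity and starts apoptosis. The protein c-FLIP, made from CFLAR, resembles caspase-8 without its protease activity and competes for the same platform, while TNF receptor 1 signals first through TRADD and RIPK1 to NF-kB. Colon cancer lines differ widely in their response to these ligands, and interferons are known to induce several of the genes.

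miR-146a is a microRNA, and FADD is among the targets that have been reported for it in T cells. The sequences of its arms are given because the construct is the only difference that the labels name between the cells. That of miR-146b-5p is given because it has the same seed as the 5p arm, which miR-7153-5p, not printed here, also has. The sequences come from the RefSeq annotation of GRCh38.p14, where the 5p arm of miR-146a lies on the plus strand at chr5:160485372-160485393. Capitals mark the seed, bases 2 to 8, by which a microRNA pairs with its targets.
hsa-miR-146a-5p: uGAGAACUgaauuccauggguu
hsa-miR-146a-3p: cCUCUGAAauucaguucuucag
hsa-miR-146b-5p: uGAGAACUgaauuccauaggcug
A transcript that pairs with the 5p seed holds the letters AGUUCUC. Transcript sequences were not used here, so the members were not searched for this match.

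The deposited values are on a log2 scale and nearly matched between arrays, with medians of 5.13, 5.14 and 5.12 in the vector and in miR-146a replicates 1 and 2. A probe set was tested when its average signal, the mean of the vector value and of the miR-146a mean, was above 5.13, the median over all 54613 probe sets other than controls. The 2 miR-146a arrays differed by a median of 0.07 over the 27306 tested probe sets, and 95% of them differed by less than 0.27. All 7 markers of colon epithelium lay above the filter, with sums of 68.1, 67.9 and 67.6 in the vector and replicates 1 and 2. EPCAM read 12.93 to 12.96 over the arrays, while CDH17 read 5.86 in the vector and 5.39 and 5.24 in the replicates (adjusted p = 0.222 in limma, or 0.00376 with the second variance prior described for FADD), whose part in the results was not tested. In contrast, the pan-leukocyte marker PTPRC (3.30 to 3.43) and the endothelial cadherin CDH5 (3.23 to 3.25) lay below the filter. These were the lowest markers of their lists. Of the markers of other cells 2 of 4 for fibroblasts, 1 of 3 for leukocytes and 1 of 3 for endothelium lay above the filter. They were COL1A1 (7.17 to 7.33), DCN (5.10 to 5.17), CD14 (6.15 to 6.41) and PECAM1 (5.89 to 5.92). The sums over each of these 3 lists ran from 20.5 to 20.9, from 14.3 to 14.8 and from 13.6 to 13.8 over the 3 arrays. Control probe sets at the 5′ ends of the ACTB and GAPDH transcripts, which report on RNA integrity, read lower in the miR-146a arrays by -0.18 to -0.32, and the 3′ ones differed by -0.03 to 0.05. The part of this 5′ difference in the results that follow was not tested.

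FADD read higher in both miR-146a arrays. Its single probe set, 202535_at (the gene lies on chromosome 11), had a log2 value of 8.99 in the vector array, 9.48 in replicate 1 and 9.35 in replicate 2. Both miR-146a values therefore lay above the vector, and the smaller of the 2 differences, 0.36, exceeded the gap of 0.12 between the replicates. The mean of 9.41 ± 0.09 (SD, n = 2) was 1.34-fold above the vector, a log2 difference of 0.42 that ranked 598 from the top among the 27306 tested probe sets. It was higher by 0.32 or more on the log2 scale in both arrays, as were 3.54% of tested probe sets, while 3.99% were lower by as much. In limma, with Benjamini-Hochberg adjustment over all tested probe sets and a threshold of 0.05, it did not pass (SE 0.09, adjusted p = 0.239). Limma passed none of the 27306, that is 0%. The replicates held exactly equal values in 12.5% of tested probe sets, and limma's variance prior had 0.56 degrees of freedom. When the prior was taken from the probe sets whose replicate values differ, with 15.1 degrees of freedom, 4.14% of tested probe sets passed as higher and 4.78% as lower. FADD passed as higher under that limma prior (adjusted p = 0.0169), with a 95% interval for the log2 difference of 0.20 to 0.64. With the prior taken in the same way, FADD no longer passed without the filter (adjusted p = 0.0601 in limma). Nor did it after cyclic loess (adjusted p = 0.167) or quantile normalization (adjusted p = 0.137), which alter the exact ties. After cyclic loess every tested member had the same adjusted p as in limma with the prior from all probe sets. That setting is thus no separate check of the prior from unequal replicates, here and below. After quantile normalization the fits differed (adjusted p = 0.156 for FADD in limma with the prior from all probe sets). Estimated anew in each setting, here and below, the prior from unequal replicates had infinite degrees of freedom without the filter and 26.9 at percentile 70. It had 1.75 after cyclic loess and 2.36 after quantile normalization. FADD then differed by 0.41 and 0.42 on the log2 scale. What part the changed prior had in the lost calls was not tested. With the filter at percentile 70 FADD passed (adjusted p = 0.000885). Limma here takes the vector array to vary as little as the miR-146a replicates do.

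**Figure D1:**
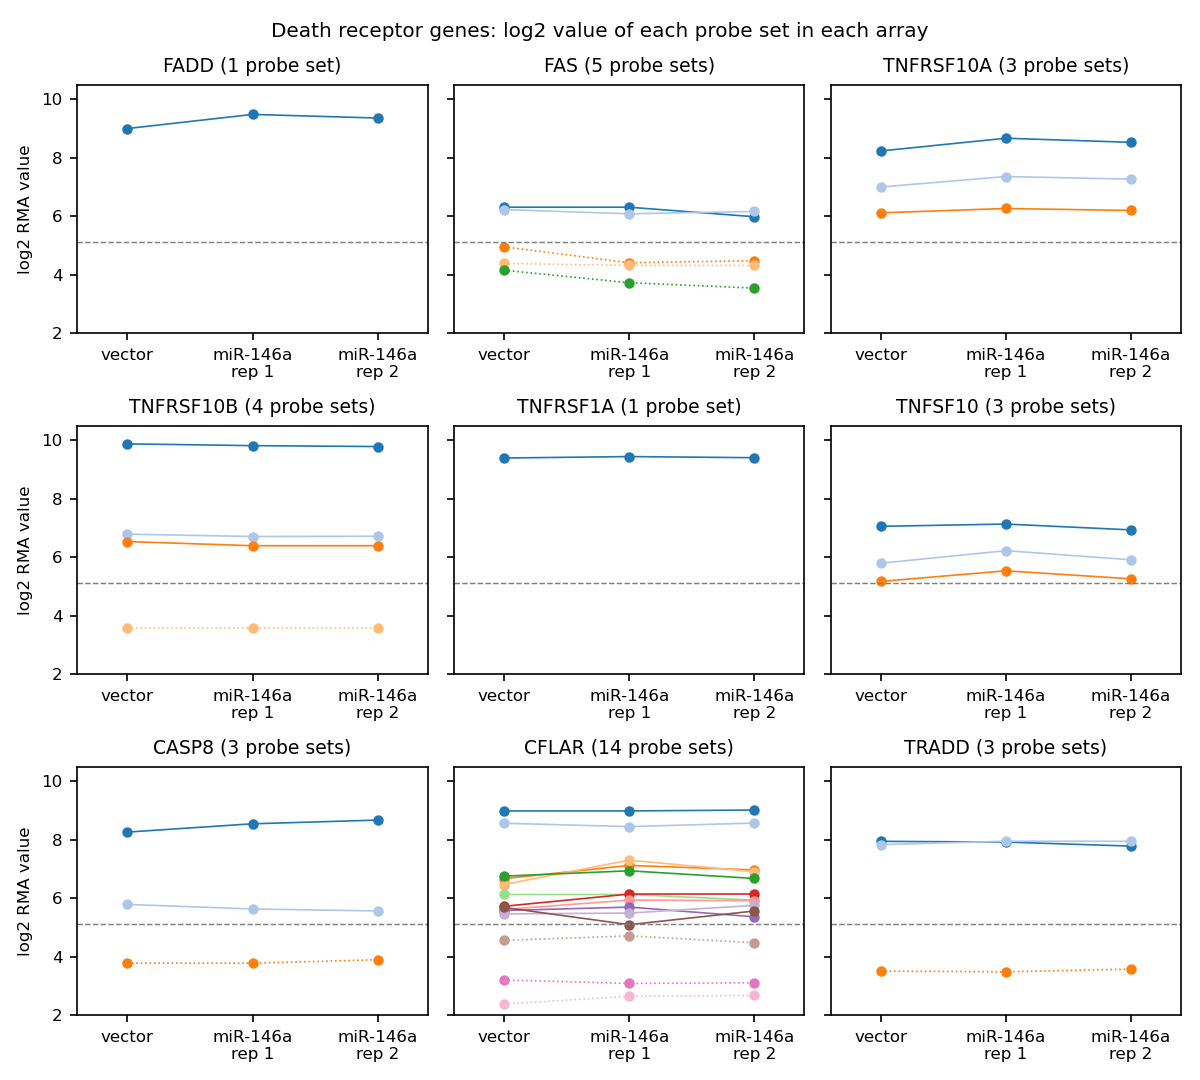
Log2 RMA values (vertical axis) of every member probe set in the vector array and in miR-146a replicates 1 and 2 (horizontal axis), with a panel for each gene and a line for each probe set. Dotted lines are probe sets below the filter of 5.13 (dashed line), FADD and all 3 probe sets of TNFRSF10A lie higher in both miR-146a arrays, and levels of different probe sets cannot be compared with each other.

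The receptors did not move one way. TNFRSF10A, the TRAIL receptor also called DR4, had 3 probe sets, and all 3 were above the vector in both arrays. Its brightest, 231775_at, read 8.23 in the vector and 8.66 and 8.52 in replicates 1 and 2, a 1.29-fold difference of the mean (8.59 ± 0.10, SD, n = 2). The next, 1552648_a_at, read 6.99 in the vector and 7.35 and 7.26 in the miR-146a arrays, or 1.24-fold. The third, 241371_at, read 6.11 against 6.26 and 6.19, a mean log2 difference of 0.11. The differences of the first 2 exceeded the gaps of 0.14 and 0.09 between the replicates, and that of the third exceeded its gap of 0.07 in the mean. None passed limma (adjusted p from 0.233 to 0.411). With the prior from unequal replicates 231775_at passed as higher (adjusted p = 0.0372 in limma) and 1552648_a_at did not (adjusted p = 0.0657). With that prior 231775_at did not pass without the filter (adjusted p = 0.143), after cyclic loess (adjusted p = 0.185) or after quantile normalization (adjusted p = 0.160). With the filter at percentile 70, 231775_at and 1552648_a_at passed with it (adjusted p = 0.00358 and 0.00984 in limma).

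TNFRSF10B, the other TRAIL receptor with a death domain (DR5), lay slightly below the vector in all 3 of its tested probe sets. The brightest, 209295_at, read 9.87 in the vector but 9.81 and 9.78 in the miR-146a arrays. The probe set 210405_x_at read 6.53 in the vector and exactly 6.39 in both miR-146a arrays, and 209294_x_at read 6.78 against 6.70 and 6.71. The mean differences thus spanned -0.14 to -0.08 on the log2 scale, or 1.05-fold to 1.10-fold lower. None passed limma (adjusted p from 0.132 to 0.318) or the fit with the prior from unequal replicates (adjusted p from 0.479 to 0.782 in limma). In that fit the 95% interval for 209295_at ran from -0.29 to 0.14 on the log2 scale. The fourth probe set, 1556645_s_at, held the same value of 3.56 in all 3 arrays and lay below the filter. The suffix x_at marks probe sets in which some probes also match other transcripts.

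FAS, the receptor of Fas ligand, had 5 probe sets and none was above the vector in both arrays. Of the 2 tested, 204780_s_at read 6.30 in the vector, exactly the same in replicate 1 and 5.98 in replicate 2, so its mean difference of -0.16 came from 1 array. The other, 204781_s_at, read 6.22 against 6.08 and 6.16. Larger differences were seen in 2 probe sets below the filter, where 216252_x_at read 4.95 in the vector and 4.40 and 4.47 in the miR-146a arrays and 215719_x_at read 4.15 against 3.72 and 3.54. These correspond to 1.42-fold and 1.43-fold lower values near background, of x_at probe sets, and were not tested with the filter used. The last, 233820_at, differed by -0.07. Neither tested probe set of FAS passed limma (adjusted p of 0.738 and 0.492) or the fit with the prior from unequal replicates (adjusted p of 0.517 and 0.662 in limma).

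TNFRSF1A, which encodes TNF receptor 1, read 9.39 in the vector and 9.44 and 9.40 in the miR-146a arrays through its only probe set, 207643_s_at. The difference of 0.03 was smaller than the replicate gap of 0.04, with a limma adjusted p = 0.693. With the prior from unequal replicates the 95% interval of the log2 difference ran from -0.18 to 0.24. TRADD, the adaptor that TNF receptor 1 recruits first, had 2 tested probe sets that lay on opposite sides of the vector. The first, 1729_at, read 7.94 in the vector and 7.92 and 7.78 in the miR-146a arrays, and 205641_s_at read 7.83 in the vector and 7.94 in both. Their mean differences were -0.09 and 0.12, and neither passed limma (adjusted p of 0.722 and 0.140). The third probe set of TRADD, 213443_at, lay below the filter at 3.48 to 3.57.

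TNFSF10, the gene of the ligand TRAIL, had 3 tested probe sets whose replicates differed more than most. The brightest, 202688_at, read 7.05 in the vector, 7.13 in replicate 1 and 6.93 in replicate 2, so the vector lay between the miR-146a arrays. The other 2 were above the vector in both arrays but mostly in replicate 1. The probe set 214329_x_at read 5.79 against 6.22 and 5.91, and 202687_s_at, the member closest to the filter with an average of 5.28, read 5.17 against 5.53 and 5.26. The gaps of 0.20 to 0.31 between replicates were larger than the mean differences of -0.02 in the first, 0.27 in the second and 0.23 in the third, and none passed limma (adjusted p from 0.624 to 0.967) or the prior from unequal replicates (adjusted p from 0.189 to 0.990 in limma). TRAIL is known as an interferon-induced gene. In the same arrays the interferon-induced MX1 read 7.31 in the vector and 8.88 and 8.72 with miR-146a, PSMB9 read 5.51 against 6.86 and 6.66, and the regulator IRF1 read 7.91 against 8.11 and 8.09.

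CASP8, which encodes the initiator caspase, gave opposite readings through its 2 tested probe sets. The brighter, 213373_s_at, read 8.26 in the vector and 8.54 and 8.67 in the miR-146a arrays, 1.27-fold higher in the mean (8.60 ± 0.09, SD, n = 2). The dimmer, 207686_s_at, read 5.78 in the vector and 5.63 and 5.56 in the miR-146a arrays, 1.14-fold lower. In each of them the smaller difference from the vector, 0.28 and -0.15, was larger in size than the replicate gap, 0.13 and 0.07, so the probe sets disagreed beyond the replicate spread, though the difference between them was not tested. Neither passed limma (adjusted p of 0.279 and 0.283). With the prior from unequal replicates the brighter passed as higher (adjusted p = 0.0458 in limma) and the dimmer did not (adjusted p = 0.306). The brighter did not pass with it without the filter (adjusted p = 0.182), after cyclic loess (adjusted p = 0.208) or after quantile normalization (adjusted p = 0.172). With the filter at percentile 70 the brighter passed with it (adjusted p = 0.00519 in limma), and the dimmer was not tested. The third, 1553306_at, lay below the filter at 3.77 to 3.89.

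CFLAR, the gene of c-FLIP, had 14 probe sets, more than any other member, and they did not share a direction. Of the 11 tested, 5 were above the vector in both arrays, 1 was below it in both and 5 were on neither side. The highest member of all was 239629_at, which read 6.46 in the vector, 7.30 in replicate 1 and 6.90 in replicate 2. Its mean of 7.10 ± 0.28 (SD, n = 2) was 1.55-fold above the vector, with a replicate gap of 0.40. Next, 214486_x_at read 5.72 in the vector and exactly 6.14 in both miR-146a arrays, or 1.34-fold higher, and 211316_x_at read 6.66 against 7.12 and 6.96, or 1.30-fold higher. The probe set 210564_x_at read 5.61 against 5.93 and 5.91, or 1.24-fold higher.

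The brightest CFLAR probe sets read close to the vector. The value of 209939_x_at was 8.98 in the vector and in replicate 1 and 9.01 in replicate 2, and 210563_x_at read 8.56 against 8.44 and 8.56. The lowest, 211317_s_at, read 5.68 in the vector but 5.09 and 5.56 in the miR-146a arrays, a mean difference of -0.35 with a replicate gap of 0.47. The other 4 tested probe sets, 237367_x_at, 209508_x_at, 211862_x_at and 208485_x_at, had mean differences from -0.10 to 0.16, and those below the filter from -0.11 to 0.28. No CFLAR probe set passed limma (adjusted p from 0.131 to 0.940). With the prior from unequal replicates 3 passed as higher, 239629_at, 214486_x_at and 211316_x_at (adjusted p of 0.00604, 0.0143 and 0.0341 in limma). Without the filter only 239629_at of these 3 passed with it (the other 2 at 0.0618 and 0.123). After cyclic loess or quantile normalization none did (adjusted p from 0.118 to 0.249). With the filter at percentile 70, 239629_at and 211316_x_at passed with it (adjusted p = 8.77e-05 and 0.00299 in limma), and 214486_x_at was not tested. Of the 14 probe sets 9 are of the x_at kind, and the probe sets are several readings of 1 gene and not replicates.

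**Figure D2:**
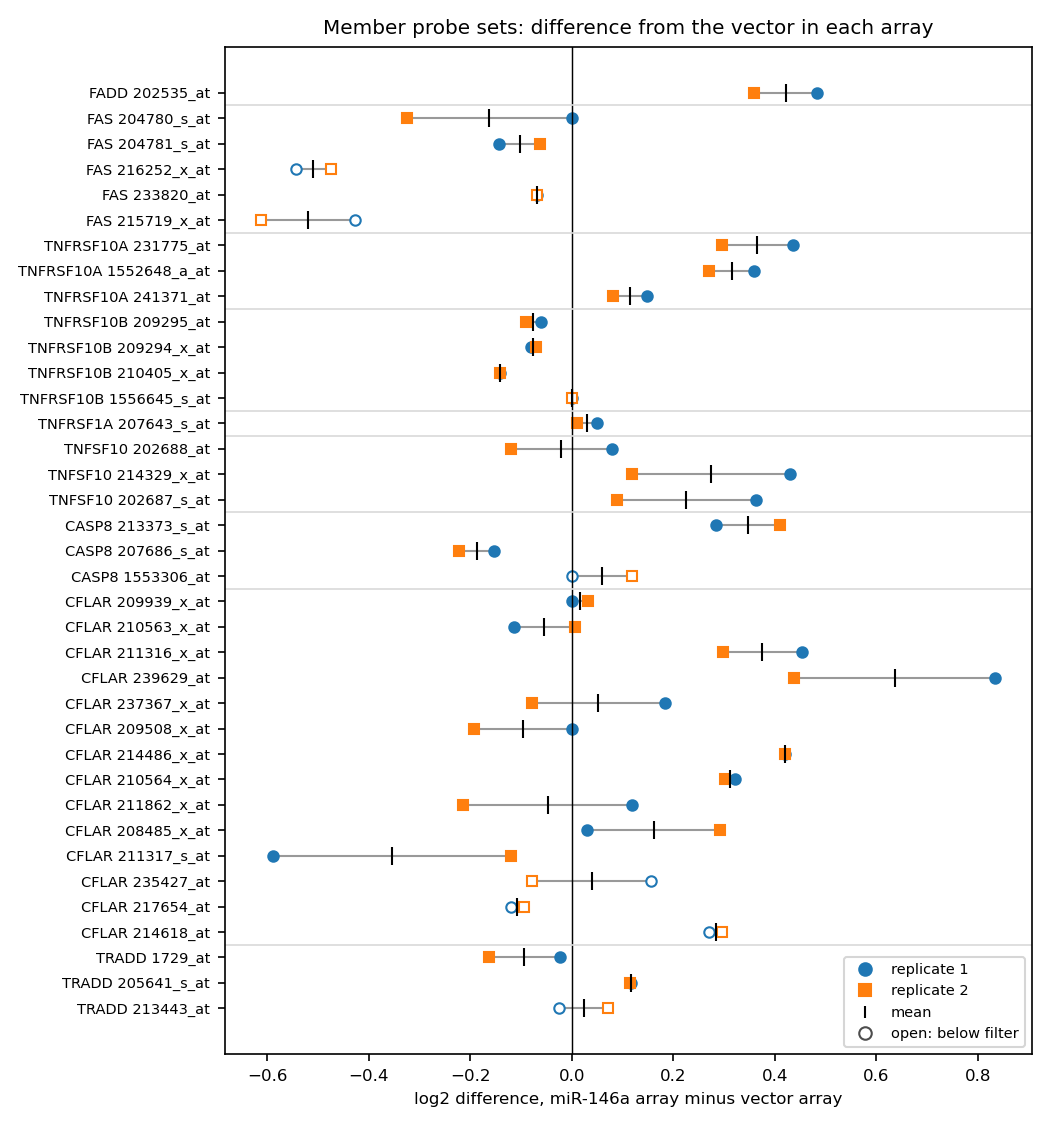
Log2 difference from the vector array (horizontal axis) of each of the 37 member probe sets (vertical axis, grouped by gene) in replicate 1 (circles) and replicate 2 (squares), with the mean as a bar and open symbols for probe sets below the filter. CASP8 and TRADD each have probe sets on opposite sides of 0, and those of CFLAR run from -0.35 to 0.64 in the mean.

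Of the 37 member probe sets 28 passed the filter, with at least 1 for each of the 9 genes. Among these 28, 14 were above the vector in both arrays, against 36% of all tested probe sets, and 7 were below it in both, against 33.1%. The median log2 difference was 0.04 over the members and 0.00 over all tested probe sets, and the replicate gap had a median of 0.13 over the members against 0.07. Higher by 0.32 or more on this scale in both arrays were 3 of the 28, FADD and 2 probe sets of CFLAR, against the 3.54% above, and 0 were lower by as much, where 3.99% of tested probe sets were. With the prior from unequal replicates 6 passed as higher, 1 each of FADD, TNFRSF10A and CASP8 and 3 of CFLAR, and 0 as lower. This is 21.4% of the members against the 4.14% given above, and 3 of the 6 remained without CFLAR, which supplies 11 of the 28. With the prior taken in the same way 1 of the 28 passed without the filter, and 0 after cyclic loess or quantile normalization. The 9 member probe sets below the filter, which the fit without it also tested, were not counted. At percentile 70, 6 of the 15 tested passed. The shares of all probe sets passing under these settings were not counted. These counts therefore cannot be set against the 4.14%, which belongs to the main filter. Limma with the prior from all probe sets called 0 of the 28. At an unadjusted p under 0.05 it had 3 higher, against 12.4% of tested probe sets, and 2 lower, against 10.9%. These 5 were TRADD 205641_s_at, 2 of CFLAR and 2 of TNFRSF10B, all with replicate gaps of at most 0.02.

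**Figure D3:**
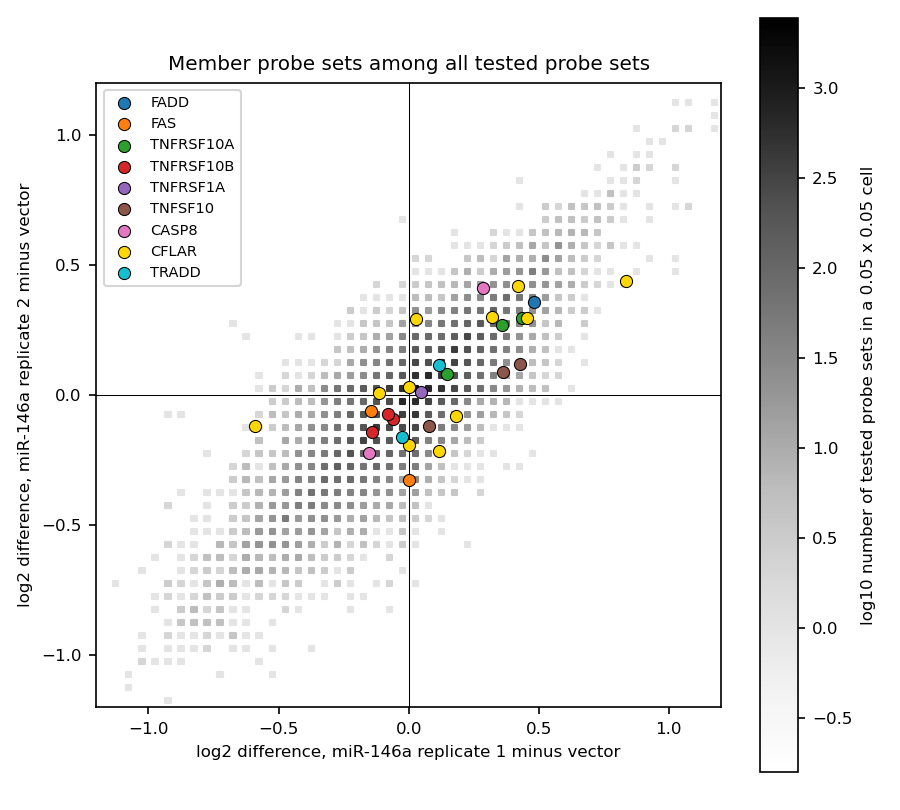
Log2 difference from the vector in replicate 1 (horizontal axis) against that in replicate 2 (vertical axis) for the 28 tested member probe sets (coloured by gene) over all tested probe sets (grey cells of 0.05 by 0.05, shaded by the log10 number of probe sets). The axes stop at 1.2 and leave out 17 probe sets, both axes share the vector array so points follow the diagonal, and FADD lies at 0.48 and 0.36.

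Promoter sequence was available from RefSeq (GRCh38.p14) for 7 of the 10 genes and not for TNFRSF10A, TNFRSF10B and TRADD. The 250 bases before each start site were searched on both strands for a STAT site (TTCNNNGAA), for the core of the interferon-stimulated response element (GAAA and GAAA parted by any 2 bases) and for an NF-kB site (GGG and CC parted by any 5 bases). Of all 35116 windows of this length 6.57%, 3.02% and 54.4% held the respective motif. The windows of FADD and TNFRSF1A held none of the 3. The third motif was found in 8 windows, those of FAS, TNFSF10, CASP8, CFLAR and RIPK1, though not in every window of these genes. The stretches printed hold the only matches of the measured genes to the first 2 motifs and, as an example of the third, 1 of the matches in CFLAR. Capitals mark the motif, on the plus strand of the gene, with 10 bases on either side.
TNFSF10: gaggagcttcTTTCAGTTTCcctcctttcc
CASP8: aaaattatttTTCCAAGAAgaaaataaac
CFLAR: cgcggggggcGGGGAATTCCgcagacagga
The TNFSF10 stretch (minus strand, chr3:172523598-172523627) holds the response element core on the opposite strand, 187 bases before the start site. The CASP8 stretch (chr2:201233253-201233281) reads as the STAT motif on both strands and lies before 1 of 3 annotated start sites, and the CFLAR stretch is at chr2:201118609-201118638. A match describes the letters only, and no binding was measured.

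Of 50 other genes listed for the pathway, 44 had a probe set of their own, 41 of them above the filter, each read through its brightest probe set. Of the 41, 15 were above the vector in both arrays, against 40.2% of all 12444 genes read this way, and 8 were below it in both, against 28.8%. Their median log2 difference was 0.05, beside 0.01 over all those genes. Higher by 0.32 or more in both arrays were 4, or 9.76% (3.79% of all genes), and 1 was lower by as much (1.95% of all genes). Limma called 0 of the 41. At an unadjusted p under 0.05 it had 7 higher and 3 lower, beside 1771 higher and 1086 lower of the 12444. Among the 41, 5 passed as higher under the prior from unequal replicates, or 12.2% (4.4% of all genes), and 1 as lower (2.29% of all genes). With that prior 3 passed without the filter, 5 of the 31 tested at percentile 70, and 0 after cyclic loess or quantile normalization. The shares of all genes passing under these settings were not counted. These counts therefore cannot be set against the 4.4% and 2.29%, which belong to the main filter.

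Among ligands and receptors, 5 of 10 tested genes were above the vector in both arrays and 1 was below. TNFRSF11B, osteoprotegerin, a soluble decoy that binds TRAIL, read 5.35 in the vector and 5.95 and 6.05 in the miR-146a arrays, 1.57-fold higher, with its other tested probe set at 0.28 on the log2 scale. TNFSF15, the ligand of death receptor 3, read 7.51 against 7.99 and 7.92, 1.36-fold higher, but its other tested probe set was at -0.18. TNFRSF1B, TNF receptor 2, which has no death domain, read 5.20 against 5.62 and 5.56, 1.31-fold higher and close to the filter. TNFRSF10D, a TRAIL receptor with a truncated death domain that acts as a decoy, read 8.02 in the vector and 7.59 and 7.60 in the miR-146a arrays, 1.34-fold lower. All 4 passed the fit with the prior from unequal replicates (adjusted p from 0.000903 to 0.0218 in limma). Without the filter TNFRSF10D (adjusted p = 0.0549) and TNFRSF1B (adjusted p = 0.0976) did not, and after cyclic loess (adjusted p = 0.155 for each) or quantile normalization (adjusted p = 0.118 for each) none of the 4 did. With the filter at percentile 70 TNFRSF10D and TNFSF15 passed (adjusted p = 0.000596 and 0.000466 in limma). TNFRSF11B and TNFRSF1B were not tested there. FASLG (4.19 to 4.50) and LTA lay below the filter.

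In the TNF receptor complex and its ubiquitin machinery, 1 of 9 genes was above and 3 were below the vector in both arrays, and none passed either fit. The largest difference there was that of BIRC2, the ubiquitin ligase cIAP1, at 10.82 in the vector and 10.62 and 10.61 in the miR-146a arrays. RBCK1, a subunit of the linear ubiquitin ligase, differed by -0.11, with other tested probe sets from 0.023 to 0.055. TNFAIP3, the deubiquitinase A20, differed by 0.11, with its other tested probe set at -0.038. Among death effector domain proteins and regulators 3 of 9 were above and 2 below. FAIM, an inhibitor of Fas-induced apoptosis, read 6.23 against 6.75 and 6.66, 1.39-fold higher. Of the 9 only FAIM passed with the prior from unequal replicates (adjusted p = 0.00765 in limma). It passed with it without the filter (adjusted p = 0.0229), but not after cyclic loess (adjusted p = 0.155) or quantile normalization (adjusted p = 0.118). DEDD2, a death effector domain protein, read 10.33 against 10.05 and 9.99 and did not pass (adjusted p = 0.0685 in limma) except with the filter at percentile 70 (adjusted p = 0.0107). DEDD, its relative, differed by 0.14, with other tested probe sets from -0.14 to 0.15, and FAF1, which binds FAS, by -0.04, with others from 0.049 to 0.11.

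Of the necroptosis genes, MLKL, which ruptures the membrane when phosphorylated, read 7.23 in the vector and 7.61 and 7.54 in the miR-146a arrays, 1.27-fold higher, and passed with the prior from unequal replicates (adjusted p = 0.0427 in limma). It did not pass with it without the filter (adjusted p = 0.189), after cyclic loess (adjusted p = 0.160) or after quantile normalization (adjusted p = 0.132). With the filter at percentile 70 MLKL passed (adjusted p = 0.00478 in limma). RIPK3, its kinase, read 5.92 against 5.99 and 5.82, and PGAM5, a mitochondrial phosphatase, differed by -0.04. Executioners and the mitochondrial arm gave 5 of 10 genes above and 1 below, with none passing at the filter used. DFFB, the nuclease that cuts DNA in apoptosis, had a log2 difference of 0.27 and passed only with the filter at percentile 70 (adjusted p = 0.0300 in limma), CASP9, the initiator of the mitochondrial pathway, one of 0.14, and DIABLO, an antagonist of inhibitor of apoptosis proteins, one of -0.06.

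**Figure D4:**
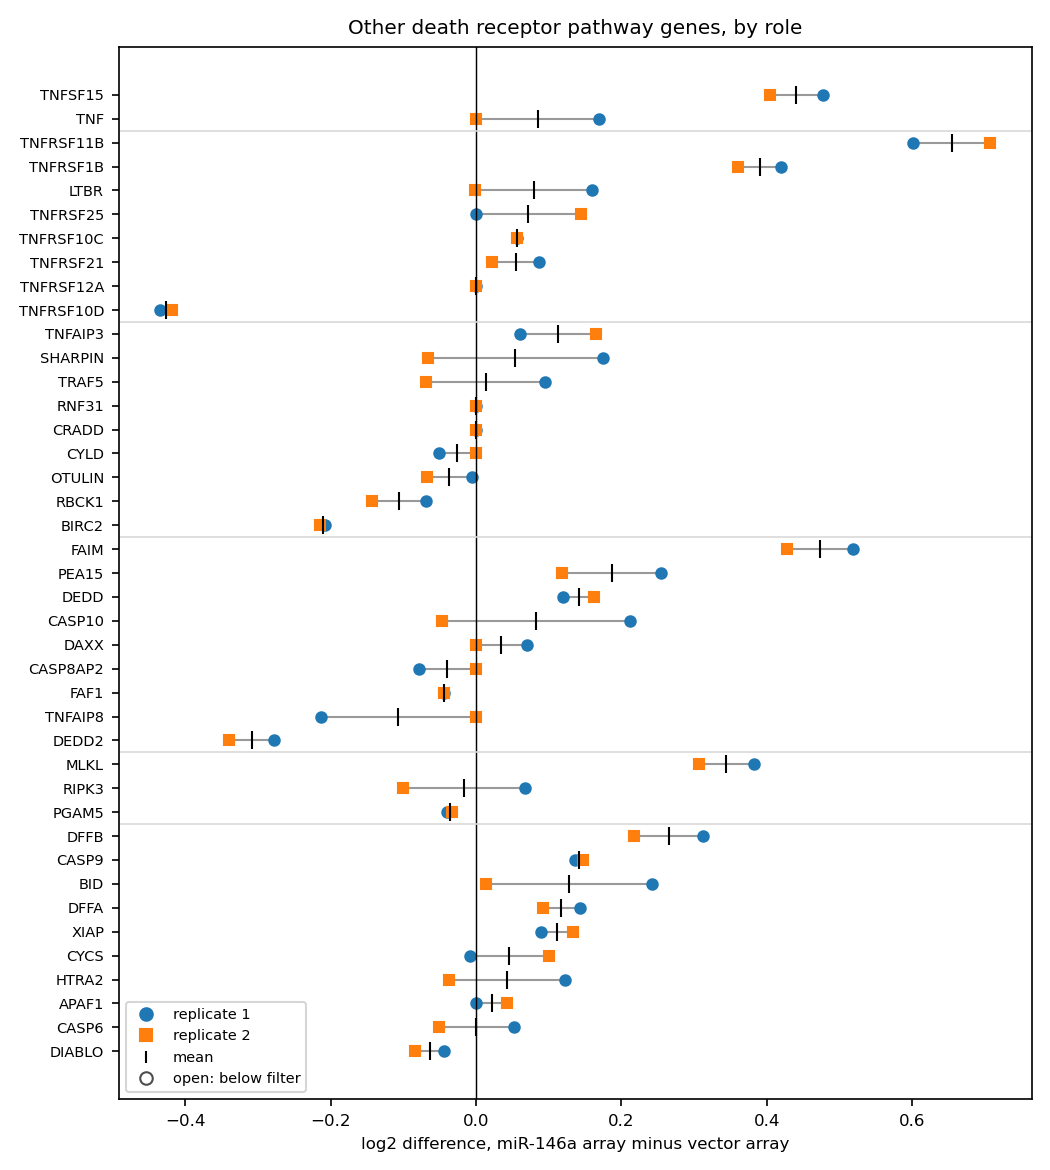
Log2 difference from the vector array (horizontal axis) in replicate 1 (circles) and replicate 2 (squares), with the mean as a bar, for the 41 tested genes of the pathway list that are not members (vertical axis). Grey lines part the roles, from the top ligands, receptors and decoys, the receptor complex with its ubiquitin machinery, death effector domain proteins and regulators, necroptosis, and executioners with the mitochondrial arm, and the means run from -0.43 for TNFRSF10D to 0.65 for TNFRSF11B.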

How the data were processed

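Biotin-labelled cRNA was hybridised to Affymetrix arrays, per the labels' protocols. The deposited log2 values of 54675 probe sets come from RMA, per the submitters' processing notes, with no version named. Arrays were grouped by their titles. Names came from the platform annotation, with symbols updated by Entrez number, and each probe set was kept separate. Differences are the miR-146a mean minus the vector, and folds are 2 to that power. Limma 3.58.1 (R 4.3.3, lmFit and eBayes, 2-sided) was fitted to all probe sets above the filter, with 1 residual degree of freedom from the miR-146a arrays, and tested on simulated data. Other pathway genes were named, per role, as the 2 highest and 2 lowest by the smaller array difference among those on 1 side of the vector. RIPK3, LTA and FASLG fall outside that rule and were chosen after their values were seen. Members and lists were chosen with earlier results of these data known. Alternatives were other filters, normalizations, variance priors and probe set rules, and leaving out each miR-146a array. Figures were drawn with matplotlib 3.10.9.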

Additional observations from a re-analysis of the deposited data

How the results depend on the processing

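Limma called 0 member probe sets without the filter, with the filter at percentile 70, after cyclic loess or quantile normalization, with an intensity trend or a robust prior, and without x_at probe sets, and 6 with the prior from unequal replicates. That last count was 3 without CFLAR and 4 without x_at probe sets, both chosen after seeing the data. Under settings combined with that prior, also added after seeing the data, it was 1 of the 28, CFLAR 239629_at, without the filter. The 9 member probe sets below the filter were left out of this count. Among them FAS 216252_x_at and 215719_x_at differed by -0.51 and -0.52. That is more in size than TNFSF15 (0.44), which passed there (adjusted p = 0.0426 in limma). With infinite prior degrees of freedom p follows the size of the difference alone, so both FAS probe sets had a smaller p. The count was 6 of the 15 tested at percentile 70, and 0 after cyclic loess or quantile normalization. After cyclic loess this fit gave every tested member the same adjusted p as limma with the prior from all probe sets. The 6 at percentile 70 were not the same set. TNFRSF10A 1552648_a_at passed only there, and CFLAR 214486_x_at was not tested there. For the other pathway genes the count with that prior was 6, and 3, 5 (of 31 tested), 0 and 0 under the same settings in that order. No member difference changed sign in any of these fits, but leaving out 1 miR-146a array turned the sign of 4, TNFSF10 202688_at (-0.02, to 0.08), CFLAR 210563_x_at (-0.05, to 0.0057), CFLAR 237367_x_at (0.05, to -0.08) and CFLAR 211862_x_at (-0.05, to 0.12). Of 14 member probe sets above and 7 below the vector, 8 and 3 remained at percentile 70, where fewer were tested, and 4 and 2 with 1 probe set per gene. Without the filter 11 were below, and without x_at probe sets 9 were above. Leaving out a miR-146a array gave 16 to 17 above, 8 to 12 below and a median of 0.021 to 0.10. For the other pathway genes it gave 18 to 24 above and 12 to 15 below, of 15 and 8. These counts need only the array that is left, not both, so they could not fall below the main counts. With 1 array left per group no limma fit was possible. No paired analysis was possible because the vector has 1 array and no replicate number. Precision is limited by the 3 arrays and by the lack of detection calls.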

Other observations

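Exactly equal values were shared not only between arrays but between different probe sets. Of the 81918 values of tested probe sets, 35.1% occurred to all deposited digits in at least 1 other tested probe set, and 31 of the 84 values of the tested members did (36.9%). The value 5.57 of CFLAR 211862_x_at in the vector array was held by 214 tested probe sets, among them 1 of CASP10 in the vector and in miR-146a replicate 2, both named after their values were seen. The largest number of probe sets that held one value was 264. Among the tested members the replicates were exactly tied in CFLAR 214486_x_at and TNFRSF10B 210405_x_at.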
